A study of Mus musculus with 20 samples.

Results

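Ear skin injected with IL-31 was compared with ear skin injected with PBS, the saline carrier, by bulk RNA sequencing. The comparison takes the 5 libraries whose labels name IL-31 and the 5 whose labels name PBS, 10 of the 20 libraries in the series. The other 10 libraries come from ears given IL-4 or IL-13, with 5 libraries each. All injections went into the skin of the right ear pinna of mice. IL-31, IL-4 and IL-13 were each given at 0.1 µg/µl in 10 µl of PBS, and no volume is stated for the PBS group. The sources used here do not give strain, age, sex, the time from injection to harvest or whether a library is 1 animal. The p-values therefore reflect only how these libraries vary, which may be technical. The mice carried no transgene or deletion that the labels name.

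IL-31 is a cytokine made mainly by type 2 helper T cells and is best known for causing itch. It binds a receptor of 2 chains, Il31ra and the oncostatin M receptor Osmr, and signals through Janus kinases and STAT transcription factors, chiefly Stat3. Keratinocytes, some immune cells and sensory neurons carry this receptor, and the cell bodies of those neurons lie in ganglia outside the ear. Socs3 is a STAT3 target that feeds back to limit such signals. An ear pinna holds 2 sheets of skin around a plate of cartilage, with fat and thin muscle. In such bulk tissue, fewer cells of a type and less RNA per cell cannot be told apart.

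Values are log2 CPM (counts scaled to library size), and fold changes are differences of log2 CPM, IL-31 minus PBS, with standard errors (SE). A gene is said to have risen or fallen when limma's test, adjusted by the Benjamini-Hochberg method over all 16461 tested genes, gave p under 0.05. Effective library sizes, read from the steps between low values, were 11.2 ± 1.39 M reads in PBS and 16.2 ± 4.30 M reads in IL-31 (SD, n = 5; M, 1e6). The ranges, 9.095 to 12.95 M and 13.21 to 23.73 M, did not overlap, so depth and treatment cannot be told apart by leaving libraries out. The PBS libraries were also the more variable, with a median SD over genes of 0.332 against 0.185 in IL-31, and the PBS SD was the larger in 82.6% of genes. The SEs take 1 spread per gene from all 4 groups. They and the p-values are therefore too small where PBS varies most, as in Slurp2, with an SD of 1.87 in PBS and 0.28 in IL-31. PBS 1, 2 and 3 stand apart from every other library in epidermal genes: the 50 tested genes of a list of epidermal barrier genes held 1.031 to 1.518% of all CPM there. In PBS 4 and 5 the same genes held 4.512 and 4.983%, and in the IL-31 libraries 4.958 to 7.486%. Markers of keratinocytes, fibroblasts, cartilage, endothelium, fat, muscle, Schwann cells, macrophages and mast cells were present, 32 of 36 markers being listed in the table. The 32 include Alb, a liver gene taken as a check for an absent tissue, which was at 0.53 to 2.52 in these libraries. The cartilage marker Matn1, the neutrophil marker Ly6g and the other checks, Prss2 and Gfap, were not listed. The hair keratins Krt35 and Krt71 stood at the lowest value in the table, -2.68, in IL-31 1 and 5.

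Across all genes, 1050 of 16461 changed (6.38%), of which 852 were higher in IL-31 (5.18%) and 198 lower (1.2%). The rises were led by genes of the outer, cornifying layers of the epidermis, such as Slurp2, Flg2, Krt10 and Krt24, and 203 of them were at least 2-fold. The falls were fewer, 20 reaching 2-fold, and took in hair keratins, Jak3, Rnf122 and the mitochondrial gene mt-Nd3. The largest change of any tested gene was a fall, Krt71 at -4.28, while the largest positive value was 3.52. The smallest adjusted p was 0.0193 and was shared by 102 genes, which is close to the threshold. At an unadjusted p under 0.05 there were 3921 genes (23.8%). All 5 IL-31 libraries lay above all 5 PBS libraries for 482 genes (2.93%) and below them for 236 (1.43%), and 464 of these 718 genes (4.36% of those tested) also passed the test.

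No gene passed without PBS 1, 2 and 3: the smallest adjusted p was 0.19, and 1227 genes (7.45%) had an unadjusted p under 0.05 in limma. The count also fell to 0 when PBS 2, IL-31 3 or IL-31 5 was left out alone, to 1 without PBS 3 and to 26 without PBS 1. Without IL-31 4 it was 405, without IL-31 1 it was 498 and without IL-31 2 it was 807. Leaving out PBS 4 or PBS 5 raised it to 1885 and 3029, and leaving out both, an alternative chosen after seeing the data, raised it to 4448. With only the 10 libraries in the fit, no gene passed (smallest adjusted p = 0.135, 3149 at an unadjusted p under 0.05), and none did with log2 library size as a covariate. The calls below are therefore calls of the fit to all 20 libraries, and the named genes that passed are given with their values, or range of values, against PBS 4 and 5 alone.

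**Figure D1:**
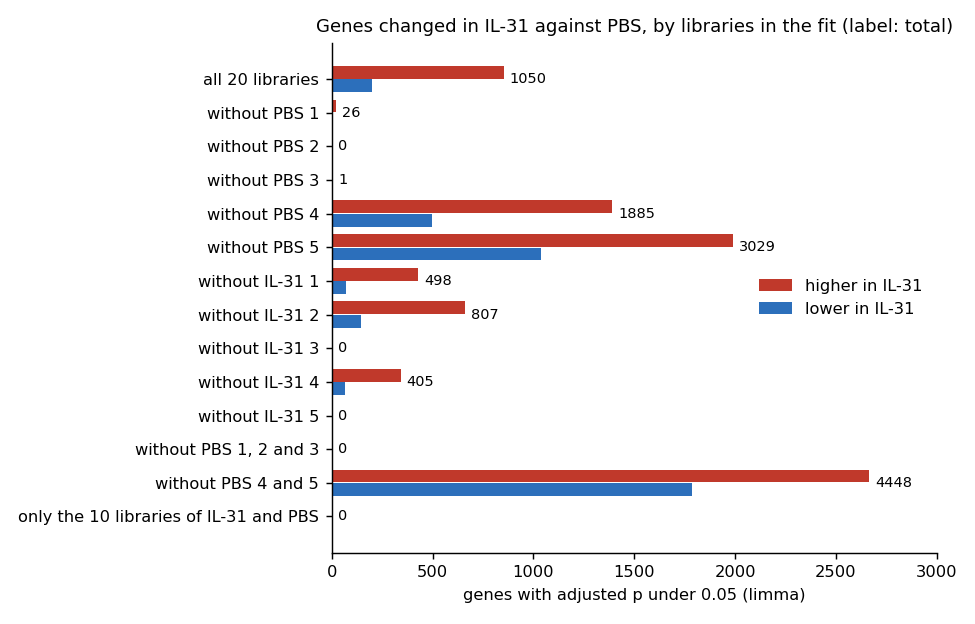
Number of genes with an adjusted p under 0.05 in limma for IL-31 against PBS (horizontal axis) for each choice of libraries in the fit (rows), with rises in red, falls in blue and the total as a label. The total is 1050 with all 20 libraries, 0 without PBS 2, IL-31 3 or IL-31 5 or without PBS 1 to 3 together, and 4448 without PBS 4 and 5.

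Which changes keep their size differed between rises and falls. Among the 852 rises the median log2 fold change was 0.63 against all 5 PBS libraries and 0.26 against PBS 4 and 5, and among the 198 falls it was -0.57 and -0.41. All 852 and all 198 had the same sign in both, which is in part fixed by the libraries that both values share. At least 80% of the size was left for 58 rises (6.81%) and for 75 falls (37.9%), while under 50% was left for 573 rises (67.3%) and 32 falls (16.2%). Against all PBS libraries 203 rises and 20 falls were at least 2-fold, and against PBS 4 and 5 these numbers were 6 and 9. An unadjusted p under 0.05 in limma without PBS 1 to 3 was seen for 243 rises and 108 falls, against 1227 of all tested genes (7.45%). All 5 IL-31 libraries lay beyond both PBS 4 and PBS 5 for 378 of the rises and 105 of the falls, against 2094 of all tested genes (12.7%) in either direction. The rises and falls were called with these same libraries, so their larger shares in both counts are in part fixed by that choice.

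**Figure D2:**
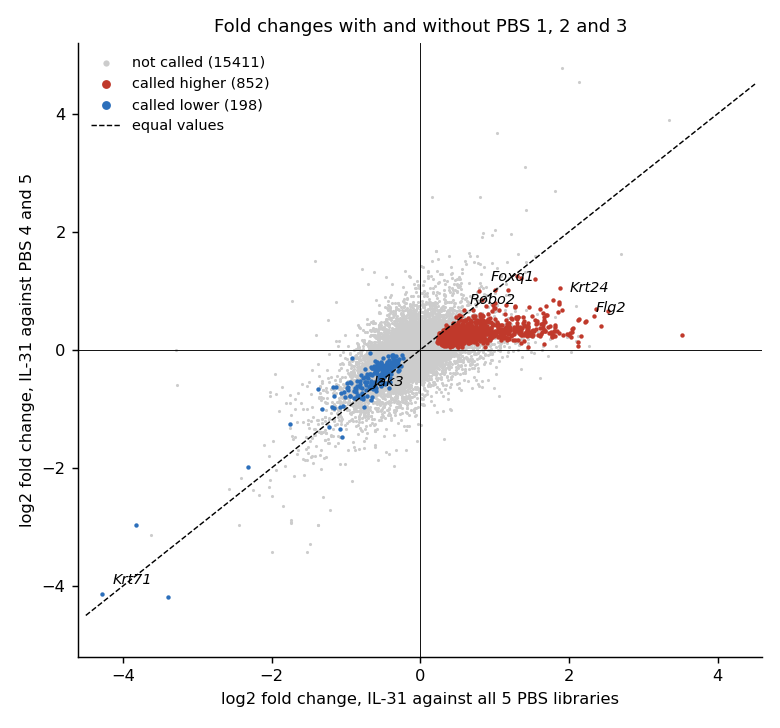
Log2 fold change of each tested gene against all 5 PBS libraries (horizontal axis) and against PBS 4 and 5 only (vertical axis), with the 852 rises in red, the 198 falls in blue and other genes in grey. The rises lie mostly far below the dashed line of equal values, with a median of 0.63 on the horizontal and 0.26 on the vertical axis, and the falls lie nearer to it.

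Il31ra, the chain that binds IL-31, was near the detection limit: PBS 1 to 5 were at -2.68, 0.49, 1.30, -0.98 and 0.61 and IL-31 1 to 5 at 0.51, -0.10, 0.19, -0.51 and -0.23. The groups overlap, and PBS 1 is at the lowest value in the table. Its log2 fold change was 0.22 ± 0.53 (SE, adjusted p = 0.818), and it turned to -0.38 without PBS 1. Osmr, the partner chain, was at 5.33, 5.07, 5.24, 4.78 and 5.79 in PBS and at 5.05, 4.81, 4.67, 5.43 and 4.85 in IL-31, with both groups on the same span. The difference was -0.28 ± 0.18 (adjusted p = 0.339). Il6st, the shared gp130 chain, differed by 0.12 ± 0.15 and Lifr, the receptor for leukemia inhibitory factor, by -0.04 ± 0.14. Neither passed, and both change sign against PBS 4 and 5, to -0.25 and 0.18.

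Il6ra, which binds IL-6 and pairs with Il6st, was the 1 gene that passed of the 19 tested members of this list (5.26%, against 6.38% of all genes). Its PBS libraries were at 7.17, 6.94, 6.68, 7.2 and 6.76 and its IL-31 libraries at 7.23, 7.42, 7.5, 7.25 and 7.27. All 5 IL-31 values lie above all PBS values, with IL-31 1 just above PBS 4. The rise was 0.38 ± 0.11 (adjusted p = 0.0394) and 0.35 against PBS 4 and 5. None of the kinases or STATs of the list passed: Jak1 differed by 0.32, Jak2 by -0.16, Tyk2 by -0.30, Stat3 by 0.10, Stat5a by 0.02 and Stat5b by -0.12. The list's median was -0.11, against -0.04 over all tested genes.

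Among 24 targets of STAT3 and genes of SOCS feedback, 1 rose and 1 fell (8.33%, against 6.38% of all genes). The list's median was -0.20. Socs3 was at 5.67, 4.70, 6.10, 4.53 and 6.72 in PBS and at 4.57, 4.73, 5.25, 5.92 and 4.42 in IL-31, so the groups overlap with PBS 5 highest. The difference was -0.56 ± 0.37 (adjusted p = 0.349). Pim3, a serine/threonine kinase that promotes survival, rose by 0.37 ± 0.09 (adjusted p = 0.0273) and stood 0.31 higher against PBS 4 and 5. Nnmt, which methylates nicotinamide, fell by 0.85 ± 0.25 (adjusted p = 0.0479), with -0.78 against PBS 4 and 5. Its IL-31 libraries spanned 1.67 to 2.62 and its PBS libraries 2.61 to 3.32, overlapping only between IL-31 5 and PBS 4. Socs1, Socs2 and Cish, other feedback genes, differed by 0.11, -0.16 and 0.22, and the acute-phase genes Lcn2, Saa3 and Hp by -0.62, -1.53 and -0.75, none of which passed.

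STAT dimers bind the palindrome TTCNNNGAA. This word was searched on both strands, which for a palindrome are the same sites, in the 250 bases upstream of each RefSeq start (GRCm38.p6). It was present for 842 of the 11821 tested genes with a promoter in the table (7.12%), for 34 of 626 rises (5.43%), for 7 of 146 falls (4.79%), for 3 of 18 STAT3 targets and for 4 of 41 barrier genes. Among all 32851 promoters of that length, 2306 (7.02%) hold it. The windows of 51 bases below belong to the receptor chain and the feedback gene of the pathway, to Krt24, a rise with the word, and to Aldoc, a rise that keeps its size against PBS 4 and 5 and holds the word at 2 places. They run 5′ to 3′ on the gene's own strand, with the word in capitals, and the RefSeq starts of Il31ra, Socs3 and Aldoc lie inside the longer GENCODE gene models.
Il31ra, chr13:112580824-112580874, minus strand, 191 to 183 bases before the start: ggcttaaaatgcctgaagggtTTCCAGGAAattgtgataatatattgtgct
Socs3, chr11:117969491-117969541, minus strand, 154 to 146 bases before the start: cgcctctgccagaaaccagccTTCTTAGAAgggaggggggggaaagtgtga
Krt24, chr11:99285354-99285404, minus strand, 121 to 113 bases before the start: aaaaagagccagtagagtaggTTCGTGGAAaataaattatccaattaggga
Aldoc, chr11:78324053-78324103, plus strand, 124 to 116 bases before the start: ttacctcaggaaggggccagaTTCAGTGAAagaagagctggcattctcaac
Aldoc, chr11:78324094-78324144, plus strand, 83 to 75 bases before the start: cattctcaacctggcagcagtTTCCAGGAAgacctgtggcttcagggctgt
Of these, Krt24 and Aldoc passed the test in IL-31 against PBS, while Il31ra and Socs3 did not. A match is a description of letters, not a bound site.

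Genes of the epidermal barrier made up the main block of rises. Of 50 tested members, 25 rose and none fell (50%, against 6.38% of all genes), and the median log2 fold change was 1.24. Against PBS 4 and 5 the median was 0.23. The barrier score, an average of the members' log2 CPM after centring each gene, was -0.91, -1.70 and -1.91 in PBS 1, 2 and 3, -0.05 and 0.60 in PBS 4 and 5 and between -0.23 and 0.51 in the IL-31 libraries. The IL-31 scores therefore lie within the span of PBS 4 and 5 except for IL-31 2, which is lower. With the barrier score as a covariate, 1 gene passed in place of 1050. The score averages genes that include 25 of the rises, and it is lowest in PBS 1 to 3. The drop is therefore in part fixed in advance, and it does not show why genes were called.

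Krt10, the keratin of the suprabasal layers, was at 11.03, 11.08 and 10.54 in PBS 1 to 3, at 13.67 and 13.72 in PBS 4 and 5, and at 14.04, 13.74, 14.38, 14.19 and 13.94 in IL-31. It rose by 2.05 ± 0.51 (adjusted p = 0.0273), and the difference from PBS 4 and 5 was 0.36. Flg2, a filaggrin-like protein of the granular layer, was at 7.6, 6.96, 5.97, 9.95 and 9.58 in PBS and between 9.99 and 10.43 in IL-31. Its rise was 2.22 ± 0.53 (adjusted p = 0.0245), with 0.46 against PBS 4 and 5. For both genes PBS 1 to 3 form one cluster and PBS 4 and 5 another that lies just under the IL-31 libraries.

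Krt24, a keratin of differentiated epidermis, kept more of its rise than these. PBS libraries were at 6.67, 5.94, 6.55, 8.45 and 7.86 and IL-31 libraries at 8.63, 8.96, 9.28, 8.99 and 8.93. The rise was 1.86 ± 0.33 (3.64-fold, adjusted p = 0.0193), and 0.80 against PBS 4 and 5. Krt24 lies on chromosome 11 from 99279959 to 99285262 (GRCm38, GENCODE M21), and Krt10 on the same chromosome from 99385254 to 99389364. Serpina12, or vaspin, an inhibitor of the epidermal protease Klk7, rose by 2.13 ± 0.48 with 0.51 left, and Lor, the main protein of the cornified envelope, by 2.43 ± 0.57 with 0.40 left. Krt80 rose by 0.98 and Dsg1a, a desmosomal cadherin, by 1.20, with 0.31 and 0.36 left. The lipid enzymes Alox12b, Aloxe3, Pnpla1, Sdr9c7 and Abca12 rose by 0.68 to 2.01, with 0.24 to 0.28 left.

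Slurp2 and Slurp1, secreted proteins of the Ly6 family that keratinocytes make, had the first and the fifth largest rises of the genes named for separate groups. Slurp2 (chromosome 15, 74742764 to 74746693) was at 2.87, 2.44, 0.76, 5.28 and 4.97 in PBS and at 5.41, 5.57, 6.07, 6.0 and 5.86 in IL-31. It rose by 2.52 ± 0.55 (5.72-fold, adjusted p = 0.0214), and 0.66 was left against PBS 4 and 5. Slurp1 rose by 2.11 ± 0.48, with 0.51 left. Cldn23, a claudin of tight junctions, rose by 2.33 ± 0.56, with 0.56 left, and Alox12, a 12-lipoxygenase, by 1.66 ± 0.36, with 0.50 left. Dkkl1, a secreted Dickkopf-like protein, was at 4.33, 3.53, 3.23, 5.96 and 5.52 in PBS and between 6.24 and 6.69 in IL-31, a rise of 1.91 ± 0.37 with 0.68 left. Fam89a, Orm1, an acute-phase plasma protein, and Rnf222 rose by 1.86, 1.75 and 1.67, with 0.64, 0.40 and 0.55 left.

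The other 25 barrier genes did not pass, and 8 of the 50 had negative values. Flg, filaggrin itself, differed by 0.65 ± 0.43 (adjusted p = 0.361), Ivl, involucrin, by 1.38 ± 0.50 (adjusted p = 0.0986) and Krt1 by 0.67 ± 0.62 (adjusted p = 0.514). The small proline-rich genes Sprr1a, Sprr1b, Sprr2a1 and Sprr2d were at 0.22, -0.42, -1.48 and -0.53, and Sprr2a1 is at the lowest value in the table in PBS 1 and IL-31 2. The late envelope genes Lce3a, Lce3b and Lce3c were at -0.73, -0.83 and 0.56. Lce1a1, Lce1b, Lce1c, Lce1d and Lce1f, of another group of the same gene cluster, rose by 1.14 to 1.5, with 0.22 to 0.33 left, although reads may be shared among these closely related genes.

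Of 15 basal keratinocyte genes, which mark the dividing layer under the barrier, 4 rose (26.7%, against 6.38% of all genes) and none fell. Among them were Cdh1, which encodes E-cadherin, by 0.69 ± 0.16, Perp, a desmosomal protein, by 0.91 ± 0.21 and Trp63, the transcription factor of stratified epithelium, by 0.41 ± 0.10. For each of these 3, all IL-31 libraries lay above all PBS libraries, and 0.24 to 0.34 was left against PBS 4 and 5. The basal keratins Krt5, Krt14 and Krt15 differed by 0.12, 0.05 and 0.01. The basal score was -0.24, -0.41 and -0.50 in PBS 1 to 3 and between -0.05 and 0.12 in the other libraries of the comparison, so PBS 1 to 3 are low here too.

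**Figure D3:**
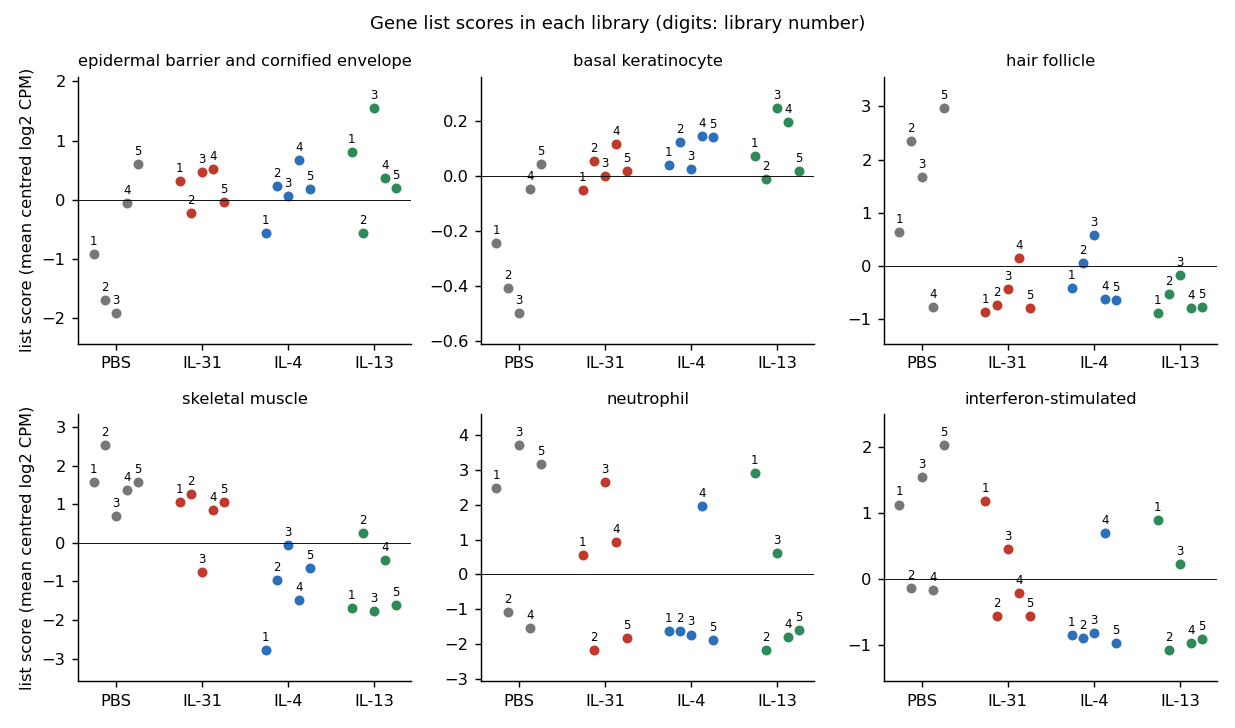
Score of 6 gene lists (vertical axis, average of the members' centred log2 CPM) in each of the 20 libraries, by group, with the library number beside each point. PBS 1 to 3 are the lowest of their group in the barrier list (-1.91 to -0.91), IL-31 3 is low in the muscle list (-0.77, others 0.85 to 1.26), and neutrophil scores range widely in both groups.

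Stress keratins and antimicrobial genes of keratinocytes gave another picture. Of 16 tested, 1 rose and none fell (6.25%, against 6.38% of all genes). The list's median was -1.26, and -1.16 without PBS 1 to 3. It was -0.446 without PBS 5 and -0.817 without IL-31 2. Krt6b, a keratin of wounded and inflamed epidermis, averaged 5.80 in PBS and 2.65 in IL-31, a difference of -3.15 ± 1.87 (adjusted p = 0.30). Krt16 and Krt6a differed by -2.0 ± 1.58 and -1.08 ± 0.99. Libraries varied widely in this list, whose score ran from -1.08 to 3.10 in PBS and from -1.83 to 1.63 in IL-31. Ereg, which encodes the growth factor epiregulin, was the gene that rose. It was at 3.33, 2.24, 2.39, 4.33 and 4.62 in PBS and at 4.95, 4.38, 5.39, 6.22 and 5.29 in IL-31, with IL-31 2 under PBS 5. The rise was 1.86 ± 0.45 (adjusted p = 0.0253), and 0.77 was left against PBS 4 and 5.

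Heat shock and immediate early genes are read as signs of handling or stress. Of 27 tested, 5 rose (18.5%, against 6.38% of all genes) and none fell. The 5 were the chaperones Hspa1a, Hspb1, Hspa1b and Dnajb1 and the transcription factor Jund. Hspb1, a small heat shock protein of differentiating keratinocytes, was at 6.95, 6.84, 6.83, 8.67 and 8.50 in PBS and between 8.71 and 9.08 in IL-31, a rise of 1.35 ± 0.29 with 0.33 left. Its pattern over PBS libraries is that of the barrier genes. Hspa1a and Hspa1b, near-identical copies between which reads may be split, rose by 0.65 ± 0.13 and 0.85 ± 0.19, with 0.34 and 0.30 left. Dnajb1 and Jund rose by 0.69 and 0.54, with 0.24 and 0.32 left. The list's median was -0.04. Fos, Egr1 and Nr4a1, the early response genes, differed by -0.64, -0.40 and -0.66 and did not pass.

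Some changes kept their size against PBS 4 and 5, and Foxq1 was the clearest. It was not particular to IL-31, as it also passed against PBS with IL-4 and IL-13, by 0.77 and 1.02. Foxq1, a forkhead transcription factor known for its part in hair shaft differentiation, was at 6.02, 5.66, 5.67, 5.78 and 5.15 in PBS and at 6.27, 6.59, 6.5, 6.20 and 6.69 in IL-31. All IL-31 libraries lie above all PBS libraries, and PBS 1 to 3 lie above PBS 5. The rise was 0.79 ± 0.14 (1.73-fold, adjusted p = 0.0193), and against PBS 4 and 5 it was 0.99 ± 0.17, where it had the smallest adjusted p of all called genes, 0.19. The gene lies on chromosome 13 from 31556134 to 31560976, overlaps a gene model on the opposite strand, and was named after its values were seen.

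Other rises that kept most of their size were modest, and were also named after their values were seen, except Robo2. Aldoc, a glycolytic aldolase, was at 3.99, 3.31, 4.31, 4.26 and 3.58 in PBS and between 4.46 and 4.71 in IL-31, a rise of 0.71 ± 0.15 with 0.68 left. Htatip2, an oxidoreductase, was at 5.24 to 5.45 in PBS and 5.64 to 6.0 in IL-31, with PBS 2 the lowest and PBS 5 the highest of the PBS libraries, and rose by 0.51 ± 0.08 with 0.47 left. Il20rb, a receptor chain for IL-20 family cytokines in keratinocytes, rose by 0.61 ± 0.11, with 0.51 left. Crip2, Zadh2, Emp2 and Arl4a rose by 0.48, 0.35, 0.51 and 0.35, with 0.42, 0.32, 0.44 and 0.41 left. For each of these 7 genes all 5 IL-31 libraries were above all 5 PBS libraries. Each of the 7 also passed as higher than PBS with IL-4 and with IL-13.

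Axon guidance and neurotrophic genes, which skin uses to direct its sensory fibres, held 3 rises and 1 fall among 44 tested. That is 9.09%, against 6.38% of all genes, and the median was -0.05. Robo2, a receptor for Slit guidance proteins, was at 3.88, 3.62, 3.83, 3.70 and 3.62 in PBS and at 3.98, 4.56, 4.04, 4.09 and 4.58 in IL-31. The groups do not overlap, and IL-31 2 and 5 are the highest. The rise was 0.52 ± 0.12 (adjusted p = 0.0223), and 0.59 against PBS 4 and 5. Nrtn, neurturin, a survival factor for neurons, was at 2.82, 2.76, 4.16, 5.23 and 5.36 in PBS and between 5.40 and 6.13 in IL-31. It rose by 1.65 ± 0.38, with 0.42 left, so PBS 1 to 3 carry most of this difference. Sema3d, a guidance semaphorin, rose by 0.86 ± 0.22, with 0.45 left. Vegfa, the growth factor for vessels, fell by 0.81 ± 0.20, with -0.53 left, and PBS 4, at 4.85, lay among the IL-31 libraries, at 4.56 to 5.07.

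Transcripts of sensory axons that reach the skin did not pass in any of the 5 tested genes. Gap43, a protein of growing axons, spanned 2.41 to 3.30 in PBS and 2.31 to 2.94 in IL-31 and differed by -0.35 ± 0.24 (adjusted p = 0.371). Of 20 Schwann cell genes 1 rose (5%, against 6.38% of all genes). It was Erbb3, the neuregulin receptor, by 0.30 ± 0.09, with 0.16 left. Among 24 itch mediators and their receptors, 2 rose (8.33%, against 6.38% of all genes) and none fell. Klk5, a serine protease that cleaves corneodesmosomes and is also a barrier gene, was at 4.23, 2.94, 2.68, 5.93 and 6.35 in PBS and between 5.97 and 6.90 in IL-31, a rise of 1.97 ± 0.54 with 0.26 left. F2rl1, the protease-activated receptor that Klk5 can cleave, rose by 0.64 ± 0.17 with 0.21 left. Both follow the barrier pattern, with PBS 4 and 5 close to IL-31. The alarmins Tslp and Il33 differed by -0.41 ± 0.36 and 0.17 ± 0.28 without passing, and Il33 turned to -0.60 against PBS 4 and 5. The natriuretic peptide gene Nppb differed by -1.27 ± 1.02, without passing, and is at the lowest value in the table in PBS 4 and in IL-31 3 and 5.

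The type 2 cytokine list holds the receptors for IL-4 and IL-13 and targets of STAT6. It had 2 rises and 1 fall among 20 (15%, against 6.38% of all genes). The list's median was 0.03, and -0.17 against PBS 4 and 5. Retnla, Chil3, Arg1 and Il4ra differed by 0.21, -1.28, -1.03 and -0.14 without passing. Jak3, a Janus kinase of receptors with the common gamma chain, was at 3.63, 3.85, 3.92, 3.65 and 4.02 in PBS and at 3.17, 2.87, 2.93, 3.16 and 3.03 in IL-31. The groups do not overlap, and PBS 1 to 3 do not stand out. The fall was 0.78 ± 0.16 (1.71-fold lower, adjusted p = 0.0193), and -0.80 was left against PBS 4 and 5. Jak3 lies on chromosome 8 from 71676296 to 71690575 and overlaps Insl3 on the same strand. Clca1, a secreted mucus regulator, rose by 0.98 ± 0.28, with 0.70 left, and Cdh1, described above, is the other rise.

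Rnf122, a RING-finger ubiquitin ligase, had the largest fall of the genes named for separate groups. It was at 3.18, 2.58, 2.83, 2.31 and 2.81 in PBS and at 1.47, 1.38, 1.41, 1.87 and 1.78 in IL-31. The fall was 1.16 ± 0.20 (2.23-fold lower, adjusted p = 0.0193), and -0.98 was left against PBS 4 and 5. Zdhhc12, a palmitoyltransferase, fell by 1.09 ± 0.22 with -0.96 left, and Csf2ra, the receptor chain for GM-CSF, by 0.78 ± 0.20 with -0.73 left. Ankle1, an endonuclease, Fbxl22, an F-box protein of striated muscle, Sfxn4, a sideroflexin of mitochondria, and Tha1, a threonine aldolase, fell by 1.07, 1.03, 1.02 and 0.98, with -0.73, -0.72, -0.79 and -0.68 left. Usp35, a deubiquitinase, Dysf, the muscle membrane repair protein dysferlin, Dzip3 and Frg2f1 fell by 0.93, 0.87, 0.81 and 0.78, with -0.56, -0.66, -0.58 and -0.75 left. Zdhhc12, Fbxl22 and Frg2f1 overlap a coding gene on the opposite strand, and whether counting used the strand is not given in the sources used here.

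Falls that kept their size and were named after their values were seen include Aldoa, Isyna1, Flot2, Lars2 and the collagen chaperone Serpinh1. Aldoa, the aldolase of muscle, was at 9.77 to 10.8 in PBS and 9.11 to 9.68 in IL-31 and fell by 0.69 ± 0.16, with -0.63 left. Isyna1, which makes inositol phosphate, fell by 0.55 ± 0.10 with -0.51 left, and its PBS libraries at 5.06 to 5.43 all lay above its IL-31 libraries at 4.63 to 4.88. Flot2, a membrane raft protein, fell by 0.48 with -0.58 left. Lars2, a mitochondrial leucyl-tRNA synthetase, and Serpinh1 fell by 0.42 and 0.40. Both were further down against PBS 4 and 5, at -0.65 and -0.54, where PBS 5 is the highest library of both. Aldoa, Isyna1, Flot2, Lars2 and Serpinh1 each also passed as lower than PBS with IL-4 and with IL-13.

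**Figure D4:**
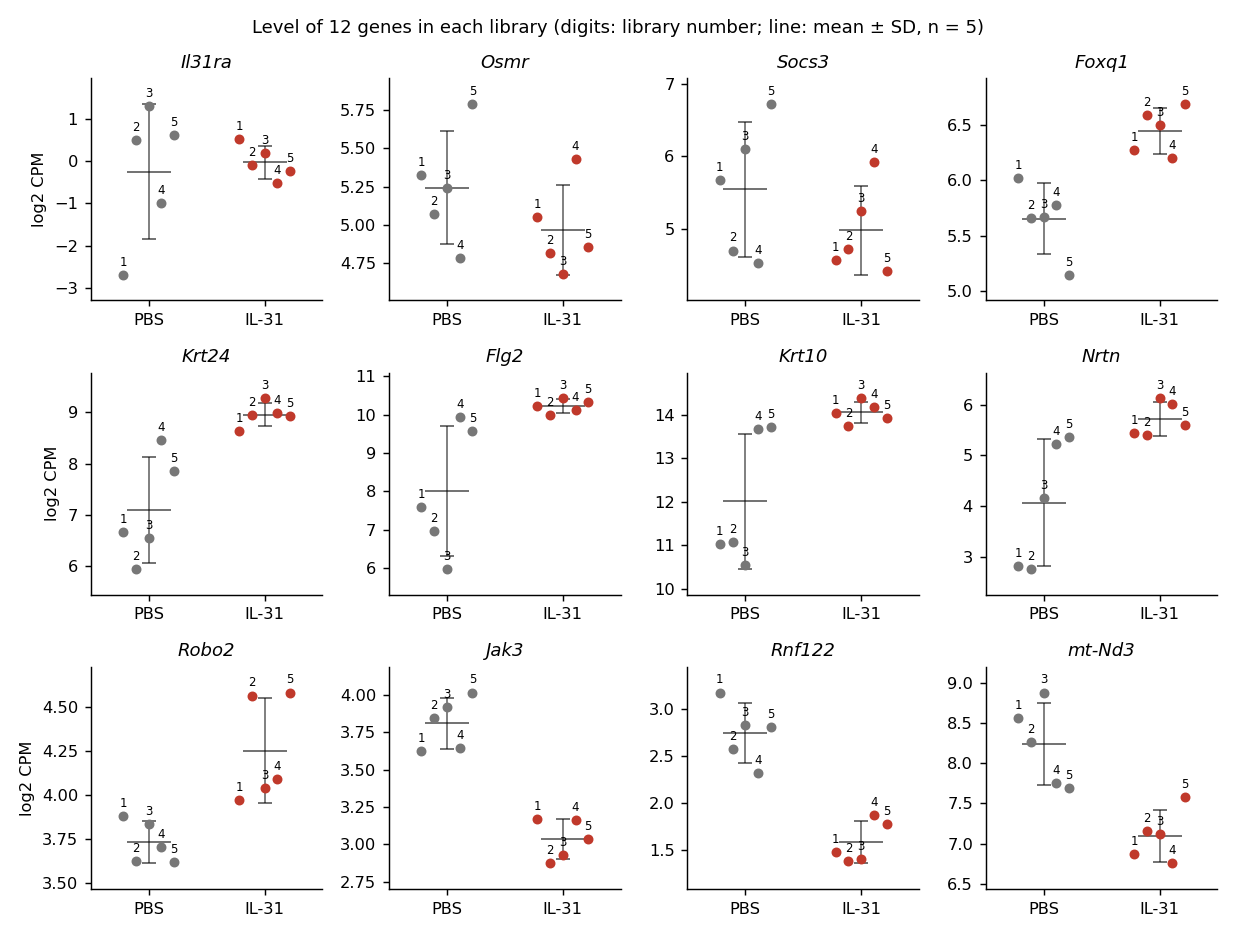
Level of 12 genes (vertical axes, log2 CPM, a separate scale for each gene) in the 5 PBS libraries (grey) and the 5 IL-31 libraries (red), with library numbers, means and SD bars. Krt10, Flg2 and Nrtn show PBS 1 and 2 far below PBS 4 and 5, Foxq1, Robo2, Jak3 and Rnf122 show PBS 1 to 3 among the other PBS libraries, and Il31ra, Osmr and Socs3 overlap between groups.

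Hair follicle genes had 4 falls and no rise among 11 tested (36.4%, against 6.38% of all genes). The list's median was -1.94, and -1.99 against PBS 4 and 5. The list holds 23 genes, and the rest were not tested. Krt71, a keratin of the inner root sheath, was at 1.36, 4.48, 2.61, -1.60 and 6.77 in PBS and at -2.68, -1.52, -1.13, 0.22 and -2.68 in IL-31. It fell by 4.28 ± 1.12 (adjusted p = 0.0306), with -4.14 left, although PBS 4 is as low as the IL-31 libraries. Krt35, a hair cortex keratin, was at 0.85, 4.5, 3.08, -2.04 and 4.82 in PBS and at most -0.51 in IL-31, a fall of 3.83 ± 0.96 with -2.98 left. Both stand at the table's lowest value in IL-31 1 and 5, so their folds depend on the offset of the values. Within this comparison both met the filter, log2 CPM of at least 0 in at least 5 libraries, mainly through PBS 1, 2, 3 and 5. A fall of these keratins is therefore in part fixed by the filter. The list's share of falls and its median include these keratins and carry the same limit. Krt28 fell by 2.31 ± 0.66, with -1.99 left, and Lef1, a transcription factor of the hair matrix, by 0.98 ± 0.25, with -0.57 left. The hair score was 0.64, 2.36, 1.67, -0.77 and 2.97 in PBS and between -0.87 and 0.14 in IL-31, so PBS 4 lies among the IL-31 libraries. Without PBS 5 the list's median was -1.23. Hoxc13 and Msx2, transcription factors of the follicle, differed by -0.20 and 0.39 without passing.

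Of 13 mitochondrially encoded genes, 2 fell (15.4%, against 6.38% of all genes). All 13 values were negative, with a median of -0.47 and -0.16 against PBS 4 and 5. mt-Nd3, a subunit of complex I, was at 8.57, 8.27, 8.89, 7.76 and 7.70 in PBS and at 6.87, 7.15, 7.12, 6.75 and 7.58 in IL-31, a fall of 1.14 ± 0.26 with -0.63 left. mt-Nd6 fell by 0.59 ± 0.15 with -0.22 left. PBS 1 to 3 are the high libraries for both, and the list's score was 0.40, 0.73 and 0.84 there and 0.12 and 0.20 in PBS 4 and 5. IL-31 3 was the lowest, at -0.29.

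Skeletal muscle genes were lower in IL-31 in all 31 tested, with a median of -0.79 and -0.72 against PBS 4 and 5, but none passed (0%, with 4 at an unadjusted p under 0.05). Without IL-31 3 the median was -0.445 and 4 of the 31 genes were higher in IL-31. Myh4, the fast myosin heavy chain, was at 8.75, 11.37, 9.55, 10.10 and 10.62 in PBS and at 7.94, 8.03, 6.84, 8.68 and 8.71 in IL-31. The groups do not overlap, yet the difference of -2.04 ± 0.96 did not pass (adjusted p = 0.20). Eno3, the muscle enolase, was at 8.46, 9.21, 7.76, 8.04 and 8.41 in PBS and at 7.57, 7.64, 6.07, 7.36 and 7.45 in IL-31, and differed by -1.16 ± 0.36 (adjusted p = 0.0585). Muscle genes held 1.161 to 3.328% of CPM in PBS, 1.033 to 1.459% in 4 IL-31 libraries and 0.3225% in IL-31 3. With the muscle score as a covariate, 2 genes passed in place of 1050, and Dysf and Fbxl22 are falls that muscle expresses. The part of the muscle content in those calls was not tested further.

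Immune lists held few calls. Of 18 neutrophil genes, none passed, all 18 values were negative, and the median was -1.43 and -0.64 against PBS 4 and 5. The neutrophil score was 2.48, 3.72 and 3.16 in PBS 1, 3 and 5 and -1.08 and -1.54 in PBS 2 and 4. In IL-31 it was 0.56, -2.17, 2.66, 0.95 and -1.82, so both groups hold high and low libraries. The median was -0.683 without PBS 3, -0.786 without IL-31 2 and -0.844 without IL-31 5, and it was -2.23 without PBS 4 and -2.18 without IL-31 3. Csf3r, the granulocyte growth factor receptor, ran from 0.37 to 5.80 in PBS and from -0.99 to 4.57 in IL-31. None of 38 interferon-stimulated genes passed either, although all 38 values were negative (median -0.80, and -0.78 against PBS 4 and 5). The interferon scores overlapped, at 1.13, -0.14, 1.55, -0.17 and 2.02 in PBS and between -0.57 and 1.19 in IL-31. PBS 4 lies among the IL-31 libraries and PBS 5 above them. Without PBS 5 the median was -0.47, and 3 of the 38 values were positive. Ifi27l2a came nearest, at -0.81 ± 0.24 (adjusted p = 0.0518), and Oasl1, at the lowest value in the table in IL-31 2, and Rsad2 differed by -2.02 ± 1.15 and -1.66 ± 1.04.

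None of 27 monocyte and macrophage genes, 21 T and innate lymphoid cell genes or 2 eosinophil and basophil genes passed, and the medians were -0.29, 0.14 and -0.17. Fcgr3, an Fc receptor of myeloid cells, differed by -0.42 ± 0.22 against all PBS libraries and by -0.77 against PBS 4 and 5, where PBS 5, at 5.49, is far above the rest. Il1rl1, the receptor for IL-33, differed by -1.20 ± 0.40 (adjusted p = 0.0791). In 3 immune lists 1 gene rose, a share near the 6.38% of all genes: 1 of 25 chemokines (4%), 1 of 23 dendritic and Langerhans cell genes (4.35%) and 1 of 14 mast cell genes (7.14%). They were Cx3cl1, the chemokine fractalkine, by 0.50 ± 0.13 with 0.21 left, Epcam, an adhesion protein of Langerhans cells and of epithelium, by 0.60 ± 0.16 with 0.39 left, and Rab27b, a GTPase of granule release, by 1.02 ± 0.27. For Rab27b, PBS 1 to 3 were at 4.05 to 4.25 and PBS 4 and 5 at 5.34 and 5.44, the barrier pattern, and 0.27 was left. The defining mast cell genes Cpa3 and Mcpt4 did not pass.

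Of 26 genes of sebaceous and lipid synthesis 2 rose (7.69%, against 6.38% of all genes). Srebf2, which drives cholesterol synthesis genes, rose by 0.48 ± 0.11, with 0.22 left. Dgat2, which makes triglycerides, rose by 0.73 ± 0.17, with 0.37 left. In the lists of fibroblast and matrix genes, endothelium, fat, cartilage, melanocytes, complement, cell cycle and red cells no gene passed, with medians from -0.45 for fat to 0.01 for the cell cycle. The fibroblast list's median was -0.23, and -0.54 against PBS 4 and 5, where the score of PBS 5, 1.08, is the highest of the 10 libraries. Without PBS 5 that median was -0.108, and without IL-31 4 it was -0.123. Col6a3 shows the same, with PBS 5 at 8.27 and the other PBS libraries at 7.62 to 7.81.

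**Figure D5:**
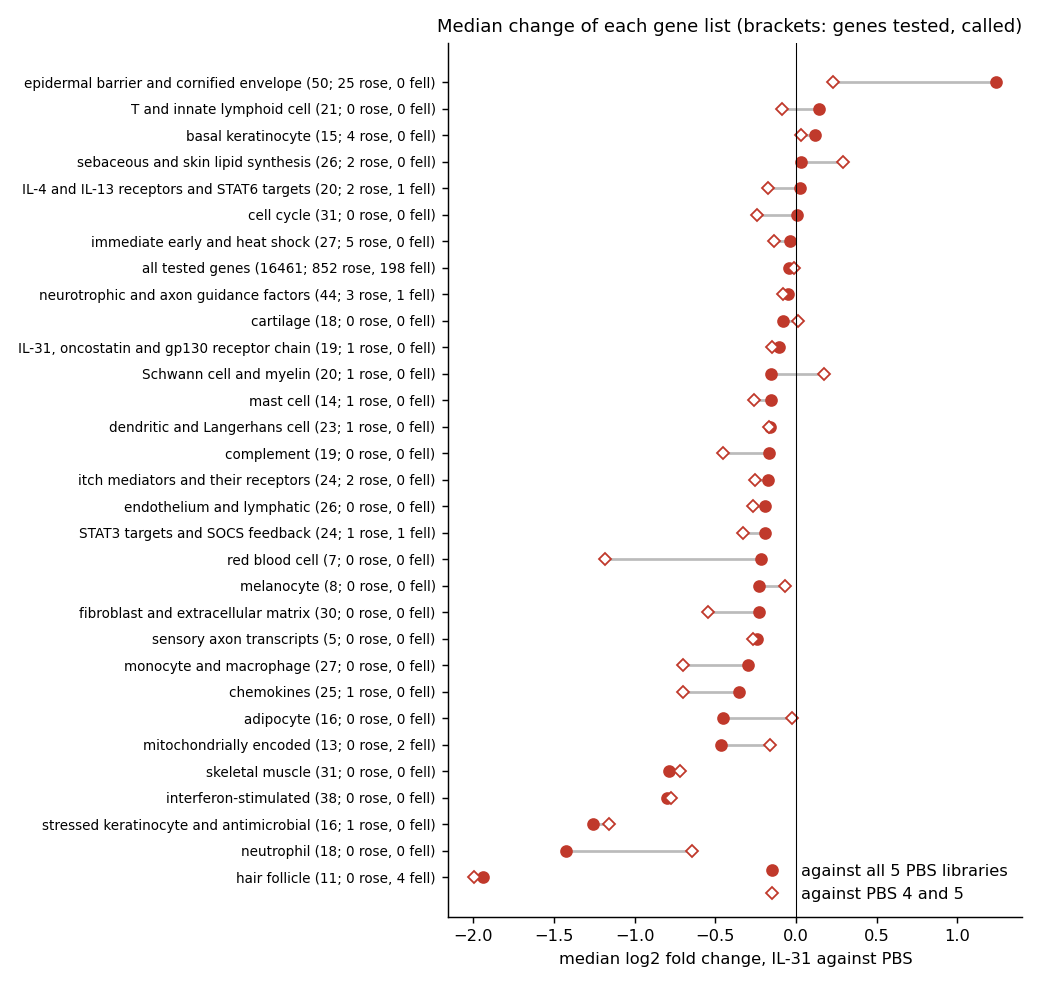
Median log2 fold change (horizontal axis) of each gene list with at least 5 tested genes and of all tested genes, against all 5 PBS libraries (filled circles) and against PBS 4 and 5 (open diamonds), with counts tested, risen and fallen in brackets. The barrier list moves from 1.24 to 0.23, while the hair follicle list is at -1.94 and -1.99, the muscle list at -0.79 and -0.72 and the interferon list at -0.80 and -0.78. In the hair and interferon lists the scores of PBS 4, -0.77 and -0.17, lie among those of IL-31. The scores of PBS 5, 2.97 and 2.02, lie above them, so the open diamonds of these lists rest mostly on PBS 5.

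Set directly against the other cytokines, IL-31 gave no call: 0 genes passed against IL-4 (smallest adjusted p = 0.142, 1743 genes or 10.6% at an unadjusted p under 0.05 in limma) and 0 against IL-13 (0.215, 1200 genes or 7.29%). All 31 muscle genes were higher in IL-31 than in IL-4, with a median difference of 1.79, and higher than in IL-13, with a median of 1.76. Without IL-31 3, the library of low muscle content, 304 genes passed against IL-4 (1.85%) and 297 against IL-13 (1.8%). Of these, 301 and 294 were higher in IL-31. Muscle genes made up 23 and 21 of the genes that passed, and the muscle medians were then 2.18 and 2.14. IL-31 3 is the lowest IL-31 library in muscle, so larger muscle differences without it are in part fixed by leaving it out. Eno3, with all libraries, was 1.41 higher than in IL-4 and 1.47 higher than in IL-13. Barrier genes were close to both, with median differences of 0.11 from IL-4 and -0.09 from IL-13, and Krt24 differed by -0.17 ± 0.33 and 0.13 ± 0.33. Jak3 was 0.13 ± 0.16 above IL-4 and 0.47 ± 0.16 above IL-13 (adjusted p = 0.31). Most calls against PBS were shared: of the 852 rises, 703 also passed as higher with IL-4 and 800 with IL-13. Of the 198 falls, 126 and 144 also passed as lower. All these comparisons use the same 5 PBS libraries. In IL-4 and IL-13, Robo2 differed from PBS by 0.77 and 0.50, Jak3 by -0.91 and -1.24 and Rnf122 by -0.94 and -0.98. Among the named falls, Ankle1, Fbxl22, Sfxn4 and Frg2f1 passed with neither, yet each was lower than PBS with both. They differed from PBS by -0.84, -0.48, -0.73 and -0.22 with IL-4 and by -0.57, -0.64, -0.54 and -0.46 with IL-13. Set directly against IL-4 or IL-13, none of them passed, so these falls are not shown to be particular to IL-31.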

How the data were processed

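RNA was measured in 20 mouse ear skin libraries, 5 per group. The deposited table holds log2 CPM values made by the authors, with edgeR and the GRCm38 genome named per the submitters' processing notes. The sources used here do not give the aligner, the annotation, edgeR's version or whether counting used the strand. Symbols matched GENCODE M21 for 16652 of 16669 rows.

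Genes with log2 CPM of at least 0 in 5 or more libraries were kept (16461, with 208 removed). They were fitted in limma 3.58.1 (R 4.3.3) with 4 group means over all 20 libraries and a mean-variance trend, and p-values were two-sided and adjusted by the Benjamini-Hochberg method. Library sizes came from the steps between low values. Since 77.6 to 88.1% of those values were whole within 0.02 reads, reads were not recovered, and a count model was not used. A count of 3 reads, a limit for counting error only, equals 0.126422 to 0.329852 CPM in the PBS and IL-31 libraries. Over all 20 libraries the highest is 0.4914 CPM, in IL-4 5.

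The genes named were the 12 largest rises and 12 largest falls that passed and whose groups did not overlap, the 3 members of each list with the smallest adjusted p (or the 1 with the smallest p), and Il31ra, Osmr, Il6st, Lifr and Socs3. Other members of the lists are named as examples, and Foxq1 and others marked so were named after their values were seen. Predicted genes, clones and pseudogenes (65 of the changed) were counted, not named. Some members of the lists are counted but not reported here by name. The members and the 32 lists were chosen with earlier results of these data known. The fits were tested on simulated data, and 26 alternatives were tried for the comparison with PBS. Sums, scores and figures were made with Python 3.11.15, pandas 2.3.3, numpy 2.4.6 and matplotlib 3.10.9.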

Additional observations from a re-analysis of the deposited data

Results flagged for a closer look

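In groups of 5 libraries, 10 of 216 values or scores checked had a single library far from the other 4, where chance gives about 1 in 20. In PBS, Dzip3 was at 3.75 in PBS 3 against 2.69 to 2.94 in the others, Slc2a4, the glucose transporter of muscle and fat, at 6.42 in PBS 2 against 5.2 to 5.53, Col6a3, a collagen, at 8.27 in PBS 5 against 7.62 to 7.81, and Fcgr3 at 5.49 in PBS 5 against 4.41 to 4.67. The fibroblast and matrix score was 1.08 in PBS 5 against -0.01 to 0.27, and the sebaceous and lipid score 0.64 in PBS 3 against -0.41 to -0.19. In IL-31, replicate 3 stood apart in all 4 values: Eno3 at 6.07 against 7.36 to 7.64, Bpgm, a red cell enzyme, at 5.11 against 4.64 to 4.74, the skeletal muscle score at -0.77 against 0.85 to 1.26, and the mitochondrial score at -0.29 against -0.02 to 0.08.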

How the results depend on the processing

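The number of genes changed in IL-31 against PBS was 1050. It was 0 with only the 10 libraries of both groups, 0 without PBS 1, 2 and 3, 0 with log2 library size as a covariate, 1 with the barrier score and 2 with the muscle score as a covariate, 1667 with array weights, and 4448 without PBS 4 and 5. Leaving out 1 library gave 0 to 3029. Against IL-4 and IL-13, where no gene passed, the counts were 692 and 535 with array weights, 283 and 170 with the neutrophil score as a covariate, and 0 to 304 and 0 to 297 when 1 library of the compared groups was left out, with all but the value without IL-31 3 at 0 (leaving out IL-4 or IL-13 libraries was chosen after seeing the data). The cause was not tested. Whether replicate numbers pair the libraries was not settled. The deviations of same-numbered libraries correlated above 0.1 for 2 of 5 numbers, at 0.452 for number 2 and 0.248 for number 3. The other numbers were at -0.229 to -0.0155, and 2 of 5 libraries correlated best with their own number. With the replicate number as a block, 1247 genes changed against PBS and 2 against IL-4. Among single genes, Il31ra turned to -0.0372 with an offset of 1 CPM and ran from -0.385 to 0.612 with 1 library left out. Il6st was -0.252 without PBS 1, 2 and 3 and ran from -0.0317 to 0.233. Lifr was 0.0076 with median-centred libraries, 0.177 without PBS 1, 2 and 3, 0.0273 with the muscle score, 0.206 with the barrier score, and ran from -0.146 to 0.0339. No other gene that the naming rule gave changed sign under these alternatives. Quantile scaling, other filters, other offsets and the robust fit kept the count against PBS within 1.5 times. Depth limits Il31ra, Krt35, Krt71, Sprr2a1, Nppb and Oasl1, which reach the lowest value in the table in at least 1 library.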
